A study of Mus musculus with 4 samples.

Results

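The proteasome is the large protease that breaks down proteins marked with ubiquitin. Its members on the array were taken as every probe set whose gene symbol in the platform annotation starts with Psma, Psmb, Psmc, Psmd, Psme, Psmf or Psmg and a digit. The rule found 104 of 45037 probe sets that were not controls, under 50 of 18828 annotated gene entries, of which 1 named a pair of genes. Messenger RNA was measured on single-colour Affymetrix mouse arrays in skin at postnatal day 16. The arrays held dorsal skin samples from 2 bitransgenic mice, whose skin makes an excess of deltaNp63alpha (a form of the transcription factor p63 made without its first activation domain), and from 2 wild type mice. The labels call the mice bitransgenic but name neither the transgenes nor the promoter that drives them, and give no inducing treatment, sex or litter. No treatment or allele is given for the wild type mice. The labels call the arrays biological replicates and do not say whether any held a pool of animals. Both groups share the age and the piece of skin.

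A proteasome is built from a barrel-shaped core and caps that feed it. The core stacks rings of alpha subunits (Psma genes), which form the gate, around rings of beta subunits (Psmb genes), of which Psmb5, Psmb6 and Psmb7 carry the cutting sites. The regulatory cap holds a ring of ATPases (Psmc genes), which unfold the substrate, and further subunits (Psmd genes) that bind ubiquitin and remove it. In cells exposed to interferon, and in many immune cells, Psmb8, Psmb9 and Psmb10 replace Psmb5, Psmb6 and Psmb7, and the PA28 activator of Psme1 and Psme2 docks on the core, which together favour peptides for MHC class I. Assembly chaperones (Psmg genes, Psmd5, Psmd9, Psmd10) help build the particle.

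Values are probe set signals in linear units of array intensity, and differences are bitransgenic minus wild type on the scale of log2(signal + 16), with n = 2 arrays per group throughout. They were scaled by the authors within each array, so they are relative to the rest of that array. In bulk skin, fewer cells of a type and less RNA per cell cannot be told apart. The proteasome was selected on the measured bitransgenic and wild type signals of this same comparison, so its differences are a description and support nothing beyond it. Of 104 probe sets, 84 had a mean at or above the filter on dim probe sets, a signal of 57.0 (the 40th percentile of the mean). Just inside lay 1 of Psma5, with a mean of 6.20 on the log2 scale, and just outside 1 of Psmc2 with 6.17. Where a gene had several kept probe sets, the brightest stood for it, which gave 47 proteasome genes among 13070 genes tested. Psma8 and Psmb11, the core subunits of germ cells and thymus, did not pass the filter, with signals of 4.1 to 18.9 on all arrays.

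Array medians ran from 97.5 to 112.8. Wild type replicates 1 and 2 correlated at 0.918, no closer than wild type replicate 2 and bitransgenic replicate 2, at 0.920. Correlations between all arrays ran from 0.869 to 0.949, the lowest of them with wild type replicate 1. That array had a 3' to 5' signal ratio of 1.55 for Gapdh, a measure of RNA integrity, against 0.931 to 1.02 on the other 3. By beta-actin the ratio was 1.66 on that array, 1.70 and 1.54 on the bitransgenic arrays and 1.53 on wild type replicate 2. Spike-in controls averaged 1598 and 1528 on the bitransgenic and wild type arrays numbered 1, and 465 and 328 on those numbered 2, so differences are also given within a number. The Trp63 gene was read by 4 probe sets, of which 2 were 28.9-fold and 23.1-fold higher in bitransgenic skin and 2 had log2 differences of -0.037 and -0.33. Basal keratinocyte markers had summed signals of 52827 and 79973 in bitransgenic skin and 56624 and 66092 in wild type skin. Differences were above 0 for 2 of the 5 and below 0 for 3. The dimmest, Itgb4, had 282 and 773 in bitransgenic skin, against 906 and 822 in wild type skin. Limma called 0.75% of all genes higher and 1.58% lower.

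Most proteasome genes read higher in bitransgenic skin by a modest amount, but none passed the test. The log2 difference was above 0 for 43 of 47 genes, against 50.5% of all genes tested. The groups did not overlap, with both bitransgenic arrays above both wild type arrays, for 32 of the 47, against 23.9% of all genes, and 0 genes lay fully below, against 24.9%. The rule was proposed from this contrast, so neither count is read as support. In limma's fit over 13070 genes, 0 of 47 were called, the smallest adjusted p being 0.0966 for Psmb8. With no adjustment and a p under 0.05, 9 genes were higher and 0 lower, where the shares of all genes were 6.91% and 9.76%.

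**Figure D1:**
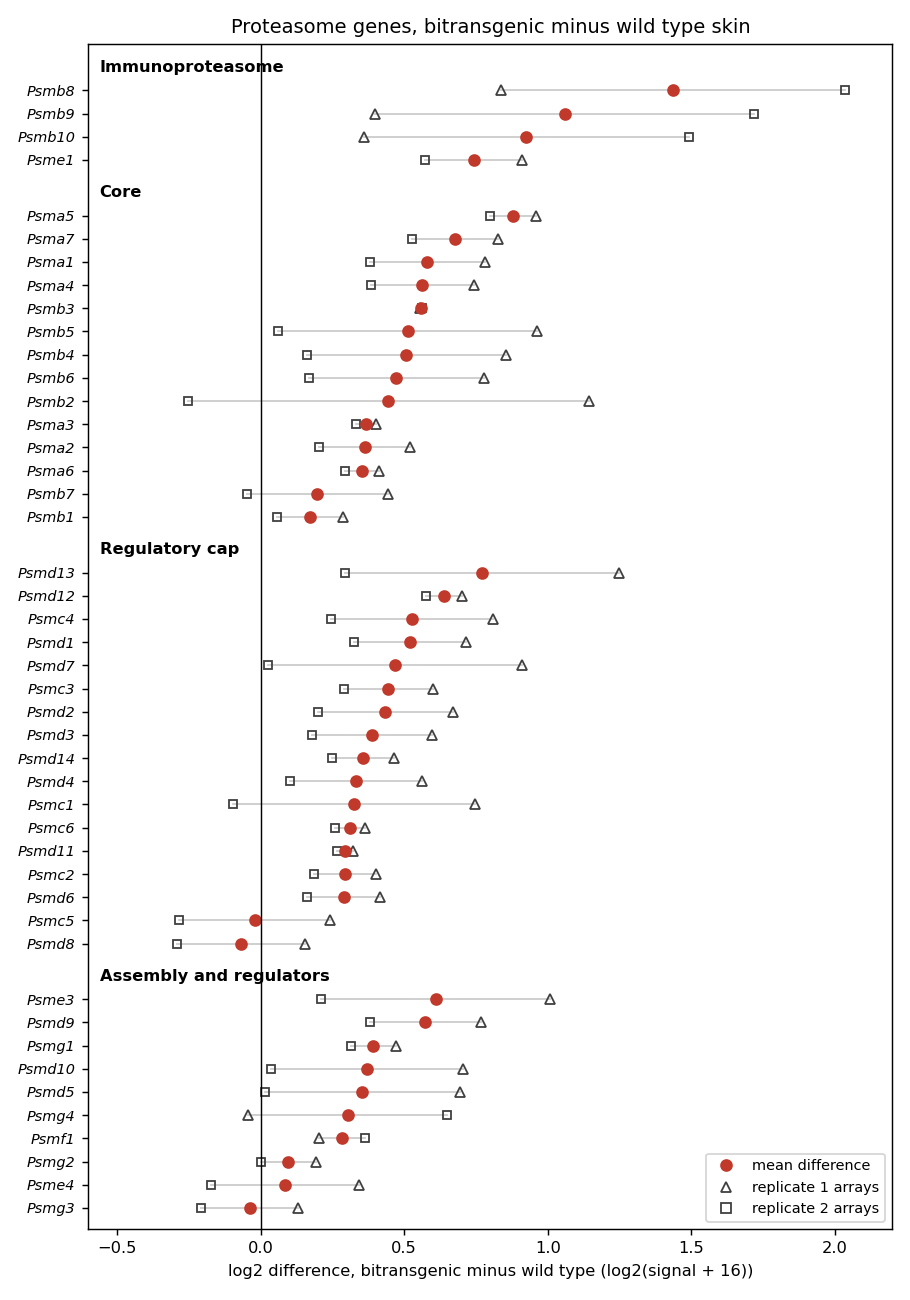
Log2 difference, bitransgenic minus wild type, for the 45 genes of the immunoproteasome, core, regulatory cap and assembly classes (filled circles, n = 2 arrays per group), with the difference between the arrays numbered 1 (triangles) and between those numbered 2 (squares). Filled circles lie right of 0 for 42 of the 45, and triangles lie right of squares for 13 of 14 core genes and 17 of 17 cap genes, but left of them for Psmb8, Psmb9 and Psmb10.

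The immunoproteasome genes had the highest class median, 0.99 on the log2 scale or 1.99-fold, and all 4 that could be tested were higher with no overlap, against 23.9% of all genes. Psmb8, which replaces the chymotrypsin-like subunit Psmb5, had signals of 1335 and 2079 in bitransgenic skin, against 740.1 and 496 in wild type skin. Its log2 difference was 1.44 ± 0.34 (SE), or 2.7-fold, with limma's 95% interval of 0.62 to 2.25. Both bitransgenic arrays were above both wild type arrays, with bitransgenic replicate 2 the highest and wild type replicate 2 the lowest. Psmb9, the replacement of Psmb6, had signals of 531 and 976 in bitransgenic skin, against 399 and 286 in wild type skin, a log2 difference of 1.06 ± 0.38. Psmb10, the replacement of Psmb7, had signals of 795 and 1085 in bitransgenic skin, against 617 and 375 in wild type skin, a log2 difference of 0.93 ± 0.35. The order of the arrays was the same for these 3 genes, and the bitransgenic arrays differed between themselves by 0.44 to 0.86 on the log2 scale.

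The activator subunit Psme1 had signals of 5347 and 3810 in bitransgenic skin, against 2836 and 2558 in wild type skin, a log2 difference of 0.74 ± 0.26. Here bitransgenic replicate 1, not replicate 2, was the highest, and the wild type arrays lay close together. Psme2 was read only by a probe set annotated to it and to its copy Psme2b, which cannot be assigned to either. This shared probe set had signals of 7983 and 5959.5 in bitransgenic skin, against 3625 and 3222 in wild type skin, a log2 difference of 1.01 ± 0.26 in the fit of all 45037 probe sets, and the same order of arrays as Psme1. In that fit limma called 0 of the 104 member probe sets, against 0.0444% of all probe sets called higher and 0.129% lower. A further probe set of Psmb8 was dim, at 14.9 and 75.6 in bitransgenic skin and 71.7 and 38.5 in wild type skin, and did not pass the filter.

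**Figure D2:**
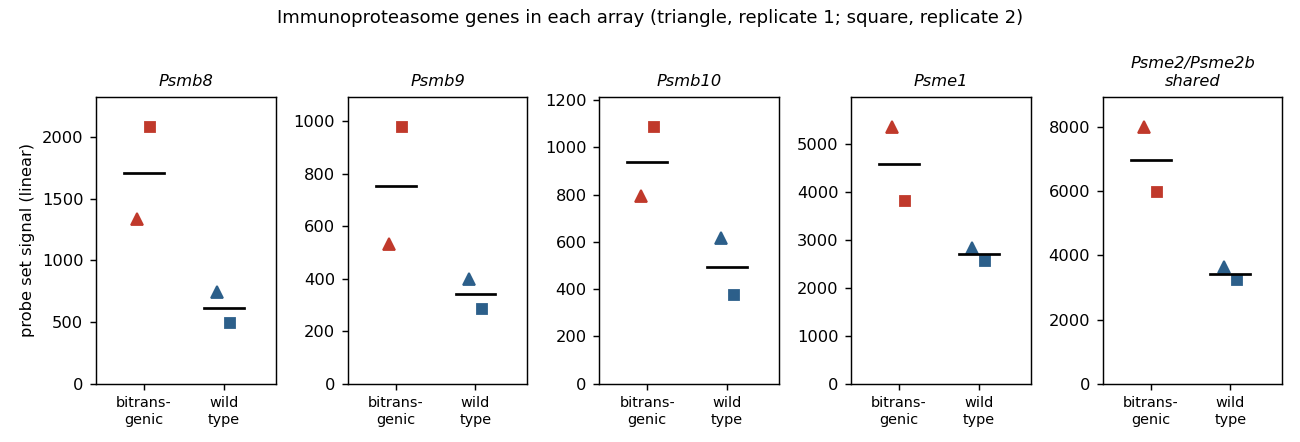
Probe set signal (linear scale from 0) of Psmb8, Psmb9, Psmb10, Psme1 and the probe set shared by Psme2 and Psme2b in each bitransgenic (left) and wild type (right) array; triangles are replicate 1, squares replicate 2 and bars the mean of 2 arrays. Groups do not overlap in any panel, and in the 3 Psmb panels the squares are the extremes of both groups, with 2079 and 496 for Psmb8.

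Each replacement subunit was set against its constitutive counterpart within each array, which removes the scaling of the array. Relative to the mean of the wild type arrays, the log2 ratio of Psmb8 over Psmb5 was 0.54 and 1.31 in bitransgenic skin, against 0.66 and -0.66 in wild type skin. The ratio of Psmb9 over Psmb6 was 0.15 and 1.02 in bitransgenic skin, against 0.53 and -0.53 in wild type skin, and that of Psmb10 over Psmb7 was 0.71 and 0.75, against 0.79 and -0.79. Wild type replicate 1 lay between the bitransgenic arrays in the first and second ratio and above both in the last, and wild type replicate 2 lay below them in all 3. The bitransgenic mean was higher by 0.92, 0.59 and 0.73 on the log2 scale, but by -0.13, -0.38 and -0.083 between the arrays numbered 1 and by 1.97, 1.55 and 1.54 between those numbered 2.

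The bases upstream of these subunit genes are shown because the replacement subunits shared an order of arrays that none of their counterparts had. They are the 250 bases before the annotated start, 5' to 3' on the gene's strand, from RefSeq for build GRCm38.p6, in which 39 of the 46 class genes had an entry. They lie at chr17:34197945-34198194 on the plus strand for Psmb8, chr17:34187331-34187580 on the minus strand for Psmb9, chr8:105938393-105938642 on the minus strand for Psmb10, chr14:54617996-54618245 on the minus strand for Psmb5 and chr11:70525107-70525356 on the plus strand for Psmb6. Capitals mark matches, on either strand, to any of 5 motifs, and no matches overlapped.
Psmb8: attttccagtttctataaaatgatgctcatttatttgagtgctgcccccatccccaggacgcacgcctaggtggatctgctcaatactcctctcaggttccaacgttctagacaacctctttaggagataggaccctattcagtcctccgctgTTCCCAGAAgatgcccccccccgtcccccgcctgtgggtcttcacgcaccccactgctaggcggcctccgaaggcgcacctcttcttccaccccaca
Psmb9: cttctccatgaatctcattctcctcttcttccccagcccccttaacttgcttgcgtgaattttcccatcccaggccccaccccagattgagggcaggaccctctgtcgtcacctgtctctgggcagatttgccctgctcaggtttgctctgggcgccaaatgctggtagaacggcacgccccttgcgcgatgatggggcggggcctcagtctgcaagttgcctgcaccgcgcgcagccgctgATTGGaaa
Psmb10: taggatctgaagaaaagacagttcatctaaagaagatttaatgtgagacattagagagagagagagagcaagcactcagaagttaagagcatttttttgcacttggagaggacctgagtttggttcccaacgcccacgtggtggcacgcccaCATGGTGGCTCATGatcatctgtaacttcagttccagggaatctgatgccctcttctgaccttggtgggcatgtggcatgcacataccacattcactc
Psmb5: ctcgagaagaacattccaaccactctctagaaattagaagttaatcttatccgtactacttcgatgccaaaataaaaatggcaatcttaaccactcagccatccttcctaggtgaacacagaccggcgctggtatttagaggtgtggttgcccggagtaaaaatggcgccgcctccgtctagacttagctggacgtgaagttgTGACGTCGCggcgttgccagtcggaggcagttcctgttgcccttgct
Psmb6: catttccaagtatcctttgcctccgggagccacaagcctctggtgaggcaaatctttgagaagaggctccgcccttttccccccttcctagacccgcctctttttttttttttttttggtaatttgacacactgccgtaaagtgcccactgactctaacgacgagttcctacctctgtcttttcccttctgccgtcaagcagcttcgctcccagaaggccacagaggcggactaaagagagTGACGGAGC
The motifs were TTCNNNGAA, the pattern of STAT factors, TGACNNNGC, bound by Nfe2l1 and Nfe2l2, and CCAAT, bound by NF-Y. The others were the interferon response pattern (GAAA, any 2 bases, GAAA) and a loose CATG pattern (CATG, any 6 bases, CATG). The CATG pattern fixes only the cores of a p53 family site, so a match does not mark a full site. Psmb8 holds 1 TTCNNNGAA, Psmb9 1 CCAAT read from the other strand and Psmb10 1 CATG pattern, while Psmb5 and Psmb6 hold 1 TGACNNNGC each. Over 32851 windows of the same kind, reaching 50 bases past the start, the shares with a match were 8.30% for TTCNNNGAA, 37.4% for CCAAT, 0.712% for the CATG pattern, 12.4% for TGACNNNGC and 3.44% for the interferon response pattern. In the core 6 of 11 genes held CCAAT and 2 held TGACNNNGC, in the cap 4 and 2 of 14, and in the assembly class 2 and 2 of 9. TTCNNNGAA was held by 0 of 11 core, 1 of 14 cap and 1 of 9 assembly genes. Of the 5 immunoproteasome genes, Psme2 included, Psme1 alone held the interferon response pattern. This pattern was also held by 1 of 11 core, 1 of 14 cap and 2 of 9 assembly genes. A match describes the letters in this window only.

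All 14 core genes had differences above 0, with a median of 0.49 on the log2 scale or 1.40-fold, and 10 were higher with no overlap, against 23.9% of all genes. Psma5, an alpha subunit of the gate ring, had the largest core difference by the brightest probe set, with signals of 12346 and 9880.4 in bitransgenic skin, against 6347 and 5672 in wild type skin. Its log2 difference was 0.88 ± 0.24, or 1.84-fold, and it was alike between the arrays numbered 1, 0.96, and those numbered 2, 0.80. Psma7, another alpha subunit, had signals of 7826 and 9272 in bitransgenic skin, against 4403 and 6427 in wild type skin, a log2 difference of 0.68 ± 0.27. Psma1 had signals of 8065 and 6749.7 in bitransgenic skin, against 4682 and 5184 in wild type skin, a log2 difference of 0.58 ± 0.23. In all 3 alpha genes both bitransgenic arrays were above both wild type arrays.

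The cutting subunits Psmb5, Psmb6 and Psmb7 differed most from wild type replicate 1. Psmb5, the chymotrypsin-like site, had signals of 7009 and 6369 in bitransgenic skin, against 3585 and 6099 in wild type skin. Psmb6, the caspase-like site, had signals of 7279.5 and 7260.4 in bitransgenic skin, against 4243 and 6454 in wild type skin. Psmb7, the trypsin-like site, had signals of 13809 and 18176 in bitransgenic skin, against 10158 and 18802 in wild type skin. Wild type replicate 1 was the lowest array for each, and wild type replicate 2 lay just under the bitransgenic arrays for Psmb5 and Psmb6 and above both for Psmb7. The log2 differences were 0.51 ± 0.31, 0.47 ± 0.27 and 0.20 ± 0.35.

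At the lower end, the structural subunit Psmb1 had signals of 7214 and 8211 in bitransgenic skin, against 5905 and 7886 in wild type skin, a log2 difference of 0.17 ± 0.25, with groups that overlapped. Psma6, whose difference was 0.35 ± 0.24, had signals of 13503 and 10815 in bitransgenic skin, against 10151 and 8812 in wild type skin, and its groups did not overlap. Psmb2 was the most uneven core gene, with signals of 3192 and 4175 in bitransgenic skin, against 1438 and 4979.8 in wild type skin, so that its wild type arrays enclosed both bitransgenic arrays. The other core genes, Psma2, Psma3, Psma4, Psmb3 and Psmb4, had log2 differences of 0.36 to 0.56, and of these only Psmb4 had groups that overlapped.

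The regulatory cap had a median of 0.36, or 1.28-fold, with 15 of 17 genes above 0 and 13 higher with no overlap, against 23.9% of all genes. Psmd13, a lid subunit, had signals of 2778 and 3327 in bitransgenic skin, against 1161 and 2709 in wild type skin, a log2 difference of 0.77 ± 0.41. Psmd12, another lid subunit, had signals of 6144 and 6079 in bitransgenic skin, against 3775 and 4070.3 in wild type skin, a log2 difference of 0.64 ± 0.22. Both bitransgenic arrays were above both wild type arrays for each, but the wild type arrays were far apart for Psmd13 and close for Psmd12. The ATPase Psmc4 had signals of 8238 and 4838 in bitransgenic skin, against 4693 and 4084 in wild type skin, a log2 difference of 0.53 ± 0.31 and no overlap.

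Only Psmd8, of the lid, and the ATPase Psmc5 had cap differences below 0. Psmd8 had signals of 5774 and 7578 in bitransgenic skin, against 5189 and 9284 in wild type skin, a log2 difference of -0.069 ± 0.34. Psmc5 had signals of 5745 and 5056 in bitransgenic skin, against 4851 and 6161 in wild type skin, a log2 difference of -0.021 ± 0.24. In each the groups overlapped, with wild type replicate 2 the highest array and wild type replicate 1 the lowest. Psmd6, of the lid, had the third lowest difference, 0.29 ± 0.23, with signals of 9235 and 9376 in bitransgenic skin, against 6911 and 8376 in wild type skin and no overlap. The ubiquitin-binding subunit Psmd4 and the deubiquitinase Psmd14 had differences of 0.33 ± 0.24 and 0.36 ± 0.23, and the largest base subunits Psmd1 and Psmd2 of 0.52 ± 0.24 and 0.43 ± 0.33. The remaining 7 cap genes lay between 0.29 for Psmc2 and 0.47 for Psmd7.

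Assembly factors and other regulators had a median of 0.33, or 1.26-fold, with 9 of 10 genes above 0 and 5 higher with no overlap, against 23.9% of all genes. Psme3, the PA28 gamma activator of the nucleus, had signals of 1181 and 800 in bitransgenic skin, against 579 and 689 in wild type skin, a log2 difference of 0.61 ± 0.30. Psmd9, a chaperone of the ATPase ring, had signals of 1013 and 1169 in bitransgenic skin, against 589 and 894 in wild type skin, a log2 difference of 0.57 ± 0.30. Groups did not overlap for either, and wild type replicate 1 was the lowest array. Psmd5 had signals of 1874 and 1446 in bitransgenic skin, against 1153 and 1432 in wild type skin, and Psmd10, also called gankyrin, had 1026 and 911 in bitransgenic skin, against 624 and 887 in wild type skin. For these chaperones of the cap's base the log2 differences were 0.35 ± 0.27 and 0.37 ± 0.29, with no overlap but only a narrow gap above wild type replicate 2.

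The Psmg genes code for chaperones that build the alpha and beta rings. Psmg1 had signals of 1390.3 and 1399 in bitransgenic skin, against 999 and 1122 in wild type skin, a log2 difference of 0.39 ± 0.24 and no overlap. Its partner Psmg2 had signals of 1507 and 1567 in bitransgenic skin, against 1317 and 1566 in wild type skin, a log2 difference of 0.10 ± 0.24. Groups overlapped for Psmg2, with wild type replicate 2 level with bitransgenic replicate 2. Psmg3 had signals of 694 and 501 in bitransgenic skin, against 632 and 581 in wild type skin, a log2 difference of -0.038 ± 0.29. Its partner Psmg4 had 504 and 904 in bitransgenic skin, against 519.9 and 571 in wild type skin, a log2 difference of 0.30 ± 0.35. These groups overlapped too, and in Psmg4 bitransgenic replicate 1 was the lowest of all arrays. Psme4, the PA200 activator, had signals of 6738 and 4515 in bitransgenic skin, against 5306 and 5087 in wild type skin, and Psmf1, the inhibitor PI31, had 628 and 905 in bitransgenic skin, against 543 and 700.2 in wild type skin. Their log2 differences were 0.086 ± 0.27 and 0.28 ± 0.31, and both had overlapping groups.

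A further 2 genes met the symbol rule but code for no subunit. Psmc3ip, a partner of recombinases in meiosis, had signals of 418 and 245 in bitransgenic skin, against 355 and 491 in wild type skin, a log2 difference of -0.37 ± 0.37. Psme3ip1, which binds Psme3, had signals of 1506 and 1842 in bitransgenic skin, against 1297 and 1561 in wild type skin, a log2 difference of 0.22 ± 0.25. Groups overlapped for both.

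Several kept probe sets were available for 21 of the class genes, and in 13 of these all had the same sign. Psmd11, a lid subunit, was read by 5, all above 0, from 0.25 to 0.56 on the log2 scale. Signs were mixed in the other 8, each time with at least 1 dimmer probe set below 0. For Psmd9 a dimmer probe set had signals of 58.8 and 65.9 in bitransgenic skin, against 104.5 and 123.2 in wild type skin, a log2 difference of -0.73, opposite to the brightest one. For Psmf1 both dimmer kept probe sets were below 0, the lower at -0.30, so the sign of the gene depends on the probe set chosen. With the mean of a gene's probe sets, Psmd9, Psmf1 and Psmd7 had log2 differences of -0.077, -0.069 and -0.082. By that mean Psma5 had 0.47, with 1 of its 3 kept probe sets at -0.23, and Psma7, with 0.73, was the highest core gene. Psma3, Psmd4 and Psmc6 had 0.18, 0.11 and 0.13. Of the 20 member probe sets under the filter, 11 were above 0 and 9 below.

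Across the arrays, most core and cap genes shared a lowest array that the immunoproteasome did not have. Wild type replicate 1 was the lowest array for 12 of 14 core genes, 14 of 17 cap genes and 7 of 10 assembly genes, against 29.4% of all genes tested. For the immunoproteasome it was the lowest for 0 of 4 genes, and wild type replicate 2 for all 4, against 23.8% of all genes. Wild type replicate 2 was also the lowest for 2 core genes, Psma5 and Psma6, and for 3 cap genes, Psmc4, Psmd11 and Psmd14. Replicate 2 minus replicate 1 of the wild type arrays had a median of 0.38 for core and 0.30 for cap, but -0.51 for the immunoproteasome and -0.013 over all genes. Between the bitransgenic arrays, replicate 2 minus replicate 1 was -0.0088 for core, -0.094 for cap and 0.54 for the immunoproteasome. Between the arrays numbered 1 the core median was 0.76 and the cap median 0.60, and between those numbered 2 they were 0.25 and 0.20. The immunoproteasome medians were 0.62 and 1.60, but its members went both ways. Psmb8, Psmb9 and Psmb10 had the larger difference between the arrays numbered 2, while Psme1 (0.91 and 0.57) and the probe set of Psme2 and Psme2b (1.14 and 0.88) had it between those numbered 1.

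Without wild type replicate 1 the core median was 0.31, with 10 of 14 genes above 0, and the cap and assembly medians were 0.16 each. Psmb2 and Psmd13 passed limma's threshold without wild type replicate 2 (log2 differences of 1.33 and 1.38, adjusted p = 0.0404 and 0.0307), but had values of -0.45 and 0.17 without wild type replicate 1 (adjusted p = 0.586 and 0.869). Psmb8 passed in limma without wild type replicate 1 (1.72, adjusted p = 0.0420), where the lone wild type array is assumed to vary like the bitransgenic ones, but did not pass without wild type replicate 2 (1.15, adjusted p = 0.0957).

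**Figure D3:**
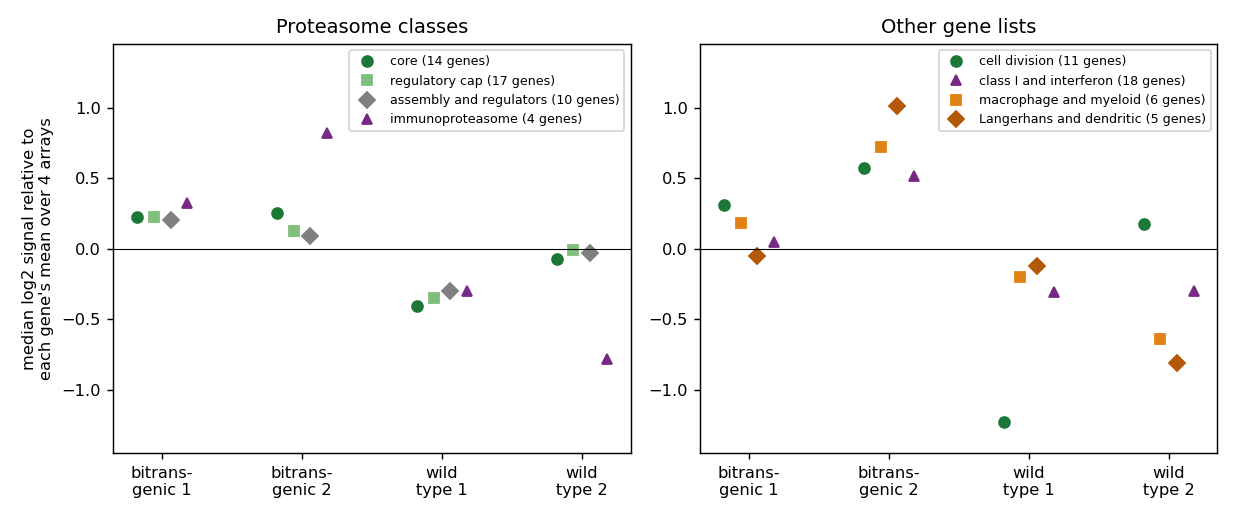
Median over genes of the log2 signal relative to each gene's own mean over 4 arrays, for the proteasome classes (left) and for other gene lists (right), in each bitransgenic and wild type array. Core, cap and assembly medians are lowest in wild type replicate 1, at -0.41, -0.35 and -0.30, as is the cell division median at -1.23. The immunoproteasome median is lowest in wild type replicate 2, at -0.78, as are the macrophage and dendritic cell medians. The class I and interferon median is about level in wild type replicates 1 and 2, at -0.31 and -0.30.

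Other gene lists also differed between groups and arrays. All 11 cell division genes tested, of 12 listed, had differences above 0, with summed signals of 28693 and 32292 in bitransgenic skin, against 12601 and 23036 in wild type skin. Wild type replicate 1 was low in this list, with a median difference of 1.40 for wild type replicate 2 minus replicate 1. Skeletal muscle markers ran opposite, with sums of 12703 and 15206 in bitransgenic skin, against 127770 and 50666 in wild type skin. All 5 were lower with no overlap, against 24.9% of all genes, and limma called 3 of them lower, against 1.58% of all genes. Hair shaft cortex markers had sums of 419 and 2377 in bitransgenic skin, against 46415 and 75380.1 in wild type skin, and limma called 5 of 5 lower, where the share of all genes is the same 1.58%. Fibroblast markers had sums of 55140 and 72804 in bitransgenic skin, against 116846 and 107343 in wild type skin. Of these, 5 of 5 were lower with no overlap, against 24.9% of all genes, and 0 were called. Fat markers, 3 tested of 4 listed, had sums of 21063 and 27460 in bitransgenic skin, against 45180 and 44792 in wild type skin. Of these, 3 of 3 were lower with no overlap, against the same 24.9% of all genes, and 0 were called. Of 5 suprabasal keratinocyte markers 3 were above 0, with a median of 1.35, and limma called 1 higher, Flg, against 0.75% of all genes. Krt10 and Lor were below 0, at -0.27 and -1.15, and Lor was lower with no overlap, against 24.9% of all genes. Sums of the 5 markers were 49208 and 61063 in bitransgenic skin, against 50944 and 40531 in wild type skin. The part of these lists in the differences of core and cap was not tested, nor was that of the Gapdh ratio.

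Beside the immunoproteasome, the 6 macrophage and myeloid markers all had differences above 0, with sums of 16413 and 23251 in bitransgenic skin, against 12899 and 7831 in wild type skin. Langerhans and dendritic cell markers, 4 of 5 above 0, had sums of 15959 and 33781 in bitransgenic skin, against 16014 and 9628 in wild type skin. The exception was Cd207, at -0.14, with signals of 433 and 900 in bitransgenic skin, against 980 and 482 in wild type skin. T cell markers, 3 of 6 above 0, had sums of 2661 and 3583 in bitransgenic skin, against 4109 and 2560 in wild type skin. No marker of these lists with a value was at 0, although Cd4 lay below the filter. None was called, and their part in the immunoproteasome values was not tested.

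Genes of MHC class I antigen processing and the interferon response had a median of 0.45, with 16 of 18 tested above 0, 11 higher with no overlap (23.9% of all genes) and 0 called by limma. At an unadjusted p under 0.05, 5 were higher and 0 lower, against 6.91% and 9.76% of all genes. Nlrc5, the activator of MHC class I genes, had signals of 854 and 1446 in bitransgenic skin, against 467 and 334 in wild type skin, a log2 difference of 1.46 ± 0.36. Erap1, which trims peptides for MHC class I, had signals of 757 and 1003 in bitransgenic skin, against 398 and 373 in wild type skin, a log2 difference of 1.14 ± 0.29. H2-K1, an MHC class I heavy chain, had signals of 15512 and 26160.1 in bitransgenic skin, against 11151 and 7514 in wild type skin, a log2 difference of 1.14 ± 0.34. For each of these 3 both bitransgenic arrays were above both wild type arrays. Tap1, the peptide transporter, had signals of 556 and 934 in bitransgenic skin, against 396 and 317 in wild type skin, and Irf1, an interferon response factor, had 652 and 901 in bitransgenic skin, against 915 and 628 in wild type skin. Tap1 did not overlap (log2 difference 0.99 ± 0.35), while Irf1 did (0.015 ± 0.32). The lowest differences were those of the chaperone Calr, -0.061, and the receptor Ifngr1, -0.0059. Calr had signals of 11667 and 16033 in bitransgenic skin, against 12963 and 15705 in wild type skin, and Ifngr1 had 969 and 1338 in bitransgenic skin, against 1001 and 1307 in wild type skin, both with overlap. Ifng itself lay below the filter, with signals of 2.5 and 12.5 in bitransgenic skin, against 2 and 9.2 in wild type skin.

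Of 12 tested genes that control proteasome genes, 8 were above 0 with a median of 0.081, and 0 were called by limma, with 2 higher and 0 lower at an unadjusted p under 0.05, against 6.91% and 9.76% of all genes. Nfe2l1, which raises proteasome genes when the proteasome is inhibited, had the largest difference, with signals of 2132 and 3147 in bitransgenic skin, against 972 and 1892 in wild type skin. Its log2 difference was 0.92 ± 0.38 with no overlap, and wild type replicate 1 was again the lowest. Mafg, a partner of both Nfe2l factors, had signals of 898 and 485 in bitransgenic skin, against 488 and 323 in wild type skin, a log2 difference of 0.71 ± 0.40 with overlap. The lowest were Nfyb, a part of NF-Y, with -0.22, and Maff, a relative of Mafg, with -0.18. Nfyb had signals of 564 and 761 in bitransgenic skin, against 633 and 923 in wild type skin, and Maff had 244 and 299.8 in bitransgenic skin, against 312 and 305 in wild type skin. Stat3, chosen after its values were seen, had signals of 2983 and 3334 in bitransgenic skin, against 1851 and 2156 in wild type skin, a log2 difference of 0.65 ± 0.23 with no overlap.

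Among 17 tested genes that handle ubiquitin or partner the proteasome, 12 were above 0 with a median of 0.27, and 0 were called by limma, with 0 at an unadjusted p under 0.05 in either direction, against 6.91% and 9.76% of all genes. Nploc4, a cofactor of the segregase Vcp, had signals of 997 and 1180 in bitransgenic skin, against 456 and 1012 in wild type skin, a log2 difference of 0.66 ± 0.40 with overlap. Pomp, the chaperone that completes the core, had signals of 10356 and 10235 in bitransgenic skin, against 5833 and 8866 in wild type skin, a log2 difference of 0.52 ± 0.28 with no overlap. The lowest were Akirin2, which brings proteasomes into the nucleus, with 3271 and 3255 in bitransgenic skin, against 4115 and 4483 in wild type skin, and the ubiquitin shuttle Ubqln2, with 1481 and 1435 in bitransgenic skin, against 2101 and 1428 in wild type skin. Their log2 differences were -0.39 ± 0.22 and -0.25 ± 0.28, with no overlap for Akirin2. The other 7 of the 24 listed genes were not analysed here.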

How the data were processed

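The deposited values are probe set intensities on a linear scale, 1 column per array. The authors made these intensities with MAS5 and affy, per the submitters' processing notes, with no version or role given in the sources used here. Each array's mean, with 2% trimmed at each end, was 499.5 to 500.0 in the deposited intensities. Detection calls were not used here. The number of arrays limits the precision.

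Intensities were taken as log2(signal + 16), with no further normalization. Probe sets under the 40th percentile of mean log2 signal were left out, which kept 27022. Bitransgenic and wild type groups, from the labels, were tested in R 4.3.3 by lmFit and eBayes with an intensity trend, from limma 3.58.1 (2 residual and 4.45 prior degrees of freedom) and Benjamini-Hochberg adjustment at 0.05 over 13070 genes, or over 45037 probe sets for values of single probe sets. On simulated data, this comparison over 13070 genes called 0.746% of the genes given a log2 change of 1, 37.2% of those given 2 and 93.8% of those given 4.

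The members and lists were chosen with earlier results of these data known. Genes given by array were the immunoproteasome genes, the cutting subunits, the 3 highest and 3 lowest of core and cap, all assembly genes, and the 2 most extreme of each related list in each direction. A probe set with several symbols was to be counted and not named, and that of Psme2 and Psme2b is named as an exception. The other core and cap genes, H2-K1, Tap1, Irf1, Ifng and Stat3 were named outside this rule, after their values were seen. The platform annotation gave 1 symbol for 34945 probe sets, several for 932 and none for 9160. Alternatives were another pseudocount, no filter, 2 scalings, a replicate block, the mean of probe sets, no cross-reacting probe sets, no trend and each array left out.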

Additional observations from a re-analysis of the deposited data

How the results depend on the processing

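Over 12 alternatives, 32 of the 43 genes with a difference above 0 stayed above 0 in each, and 11 did not. All 14 core genes were above 0 under every alternative but 2: leaving out wild type replicate 1 gave 10 and leaving out bitransgenic replicate 2 gave 13. Leaving out 1 array at a time, the core median ran from 0.31 to 0.70, the cap median from 0.16 to 0.51, the assembly median from 0.16 to 0.47 and the immunoproteasome median from 0.75 to 1.32. The number of proteasome genes called higher ran from 0 to 2 and that of genes higher with no overlap from 32 to 43, over fewer arrays, where the share of all genes was 33.7% to 39.4%, against 23.9% with all arrays. Genes fully below then numbered 5 without wild type replicate 1, 3 without bitransgenic replicate 1, 1 without bitransgenic replicate 2 and 0 without wild type replicate 2. The shares of all genes fully below over fewer arrays are not given here, so these counts have no background beside them. Counts of no overlap were added after the data were seen. The class medians moved by less than the spread between replicates under the other alternatives, and limma called 0 proteasome genes in each. At limma's unadjusted p under 0.05, 5 to 12 were higher and 0 lower. Without any alternative, the shares of all genes were 6.91% and 9.76%, and the shares under each alternative are not given here. Quantile normalization put 28 genes fully above, where the share of all genes was 26.0%. Equal array medians moved the median of all genes to 0.083 and put 31 fully above, where that share was 27.6%. Replicate numbers are shared by the groups but the labels give them no common origin, and the deviations of same-numbered arrays correlated at 0.21 over genes. With the replicate block, 0 proteasome genes passed in limma, the smallest adjusted p being 0.0501 for Psma5, while limma called 207 genes higher and 438 lower over all genes, against 98 and 206 without it. Without the filter 52 and 132 genes were called, and leaving out 1 array gave 22 to 314 higher and 96 to 635 lower. At 2 arrays per group, a log2 change of 1 was called for 0.746% of changed genes in simulated data. That simulation drew genes of every brightness and held no change under 1, so it does not give the rate for the proteasome genes.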
